A study of Mus musculus with 9 samples.

Results

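The cell cycle and mitosis genes examined here are a list of 50 genes that work in DNA replication or in cell division. They were found on the array by gene symbol, with 1 feature per symbol (the one of highest mean over all 9 arrays), which gave 46 of the 50 among 19505 genes in all. Ccnb1, Ccnd1, Mcm7 and Foxm1 were not found under their symbols and were not analysed here. The 46 fall into 17 S-phase genes and 29 mitotic genes. All samples are skin from the backs of mice aged 8 weeks (strain C57BL/6J), with the hair removed, that received 5% imiquimod cream (IMQ, a Toll-like receptor agonist that induces psoriasis-like dermatitis) daily for 7 days. In the stretch group (IMQ+F, n = 5) the skin was also held under traction by a glued plastic device elongated by 10 mm on the first day, and in the no-stretch group (IMQ+N, n = 4) it was not. The labels do not say whether non-stretched skin carried a device, nor whether every sample came from its own mouse; a p-value here reflects only how far these samples scatter, and that scatter may be technical. The values are log2 expression levels from Affymetrix arrays, normalised by the authors. Skin without imiquimod was not analysed here.

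A dividing cell copies its DNA in S phase and separates the copies in mitosis, and a matching set of genes is transcribed for each step. Around entry into S phase, E2F transcription factors activate the genes for cyclin E, for the MCM helicase that unwinds DNA, and for the enzymes that supply nucleotides. Later, the MuvB complex, with B-MYB and FOXM1, activates the mitotic genes through a promoter element called the CHR, often with CCAAT boxes bound by NF-Y nearby. In the epidermis divisions are normally found in the basal layer and in growing hair follicles, and psoriasis-like inflammation is known for raised keratinocyte proliferation. In whole skin, a lower or higher level of these transcripts cannot tell fewer or more dividing cells apart from less or more RNA per cell.

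The promoters of 6 members are shown because they hold different mixes of the letters named above, and because the genes had different values on the arrays: Cdk1, Ube2c, Mcm6 and Rrm2 had some of the larger differences between stretched and non-stretched skin, while Mki67 and Top2a had almost none. Each run is the 250 bases before the annotated start in RefSeq, build GRCm38.p6, read 5′ to 3′ along the gene. The windows lie at chr10:69352913-69353162, minus strand (Cdk1), chr2:164769679-164769928, plus strand (Ube2c), chr1:128359706-128359955, minus strand (Mcm6), chr12:24708004-24708253, plus strand (Rrm2), chr7:135716380-135716629, minus strand (Mki67) and chr11:99024190-99024439, minus strand (Top2a). Capitals mark a match, on either strand, to the CHR (TTTGAA, or its variant TTCGAA), the CCAAT box (CCAAT) or the E2F letters (TTCCCGC, its variant TTCGCGC, the variant TTGCCGC and the variant TTGGCGC). Where matches overlap, the capitals run together.
Cdk1: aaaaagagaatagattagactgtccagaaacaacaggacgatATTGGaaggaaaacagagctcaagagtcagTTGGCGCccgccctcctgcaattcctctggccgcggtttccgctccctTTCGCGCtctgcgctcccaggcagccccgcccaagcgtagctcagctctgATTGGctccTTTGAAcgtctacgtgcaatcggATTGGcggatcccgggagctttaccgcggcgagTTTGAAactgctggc
Ube2c: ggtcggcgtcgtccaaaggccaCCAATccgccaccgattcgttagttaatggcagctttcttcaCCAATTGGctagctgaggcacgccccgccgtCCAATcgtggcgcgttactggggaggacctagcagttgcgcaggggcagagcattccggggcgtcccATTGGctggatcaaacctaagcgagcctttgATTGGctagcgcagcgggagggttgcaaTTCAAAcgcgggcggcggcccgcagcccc
Mcm6: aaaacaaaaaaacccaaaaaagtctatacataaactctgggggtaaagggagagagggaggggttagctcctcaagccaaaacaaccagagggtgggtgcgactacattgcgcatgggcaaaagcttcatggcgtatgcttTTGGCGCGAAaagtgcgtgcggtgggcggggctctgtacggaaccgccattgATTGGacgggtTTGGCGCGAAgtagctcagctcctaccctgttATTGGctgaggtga
Rrm2: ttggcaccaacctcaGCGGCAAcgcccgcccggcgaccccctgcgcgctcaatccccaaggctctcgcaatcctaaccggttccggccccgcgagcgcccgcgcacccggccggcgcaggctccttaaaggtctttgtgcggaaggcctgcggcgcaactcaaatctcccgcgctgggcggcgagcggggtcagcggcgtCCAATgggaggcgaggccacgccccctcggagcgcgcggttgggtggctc
Mki67: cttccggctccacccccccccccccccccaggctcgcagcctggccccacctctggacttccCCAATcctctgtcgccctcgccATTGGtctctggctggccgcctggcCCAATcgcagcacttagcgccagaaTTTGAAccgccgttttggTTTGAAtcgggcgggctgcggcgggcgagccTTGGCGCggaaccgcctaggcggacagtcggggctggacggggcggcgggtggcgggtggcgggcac
Top2a: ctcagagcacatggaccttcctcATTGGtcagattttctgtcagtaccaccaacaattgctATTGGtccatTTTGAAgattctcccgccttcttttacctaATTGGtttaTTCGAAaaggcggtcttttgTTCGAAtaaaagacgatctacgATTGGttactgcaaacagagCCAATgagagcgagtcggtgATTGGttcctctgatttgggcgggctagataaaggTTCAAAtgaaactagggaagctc

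The Cdk1 window held 2 CHR, 3 CCAAT and 2 E2F matches, and the Ube2c window 1 CHR and 6 CCAAT matches with none to the E2F letters. Mcm6 held 2 places where the E2F letters overlap on both strands and 2 CCAAT matches, and no CHR. Promoters were listed for 41 of the 50 members, 3 of them with 2 promoters, giving 44. E2F letters stood in 8 of 16 S-phase promoters and 4 of 28 mitotic ones (14.3%), against 7.89% of all 32851 promoters. CCAAT boxes stood in 11 of 16 S-phase promoters (68.8%) and 24 of 28 mitotic ones (85.7%), against 33.8% of all promoters. The CHR letters stood in 3 of 16 (18.8%) and 11 of 28 (39.3%), against 17.1% of all. These are counts of letters in a window. The promoters shown were picked partly by the genes' changes with stretch, and whether the letters go with those changes was not tested.

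Stretched skin had slightly higher levels of most cell cycle genes, and no single member passed the test. The log2 change (stretch minus no stretch) was above 0 for 40 of the 46 members, compared with 49.6% of all genes, and its median was 0.28, against -0.0034 over all genes. None of the 46 passed limma's moderated test at an adjusted p of 0.05 over all genes, a threshold that 0.246% of all genes passed (0.082% higher with stretch and 0.164% lower). At an unadjusted p under 0.05, 10 members were higher with stretch and 0 were lower, where 13.0% of all genes had such a p, 6.92% higher and 6.07% lower. These 10 were Cdk1, Birc5, Bub1 and Ube2c among mitotic genes and Mcm6, Ccne1, Ccne2, Mcm3, Mcm4 and Rrm2 among S-phase genes. The smallest adjusted p of any member was 0.16, for Cdk1 (limma, Benjamini-Hochberg).

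The size of this shift depended on single arrays. With any single array left out, the median stayed above 0 for S-phase (0.17 to 0.48) and mitotic members (0.16 to 0.40). Stretch replicate 1 was the highest of the 9 arrays for 20 of the 46 members, and no-stretch replicate 3 the lowest for 22. These are also the 2 arrays that limma weighted least (0.55 and 0.58), and across genes no-stretch replicate 3 correlated least with the others (median r 0.975). Stretch replicate 3 was the lowest stretched array for 36 of the 46 members and the lowest of all 9 for 12. Stretch replicate 1 and no-stretch replicate 3 were also left out together, a choice made after seeing the data. Their member means were the highest with stretch (0.66) and the lowest without (-0.29), so this omission was bound to shrink the mean difference. In that fit 2 members (Cdk1 and Birc5) had an unadjusted p under 0.05 and were higher. This share is no larger than the 5.17% of all genes higher there. Of 46 changes, 31 were above 0, and the medians were 0.17 for S-phase and 0.08 for mitotic members. Without no-stretch replicate 3 alone, 4 members were higher and 1 lower at that p, against 4.67% of all genes higher, and without stretch replicate 4 it was 5 members higher, against 5.79% of all genes. Without stretch replicate 3 it was 16, against 7.45% of all genes, and 1 member, Ube2c, passed over all genes (limma adjusted p = 0.046).

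**Figure D1:**
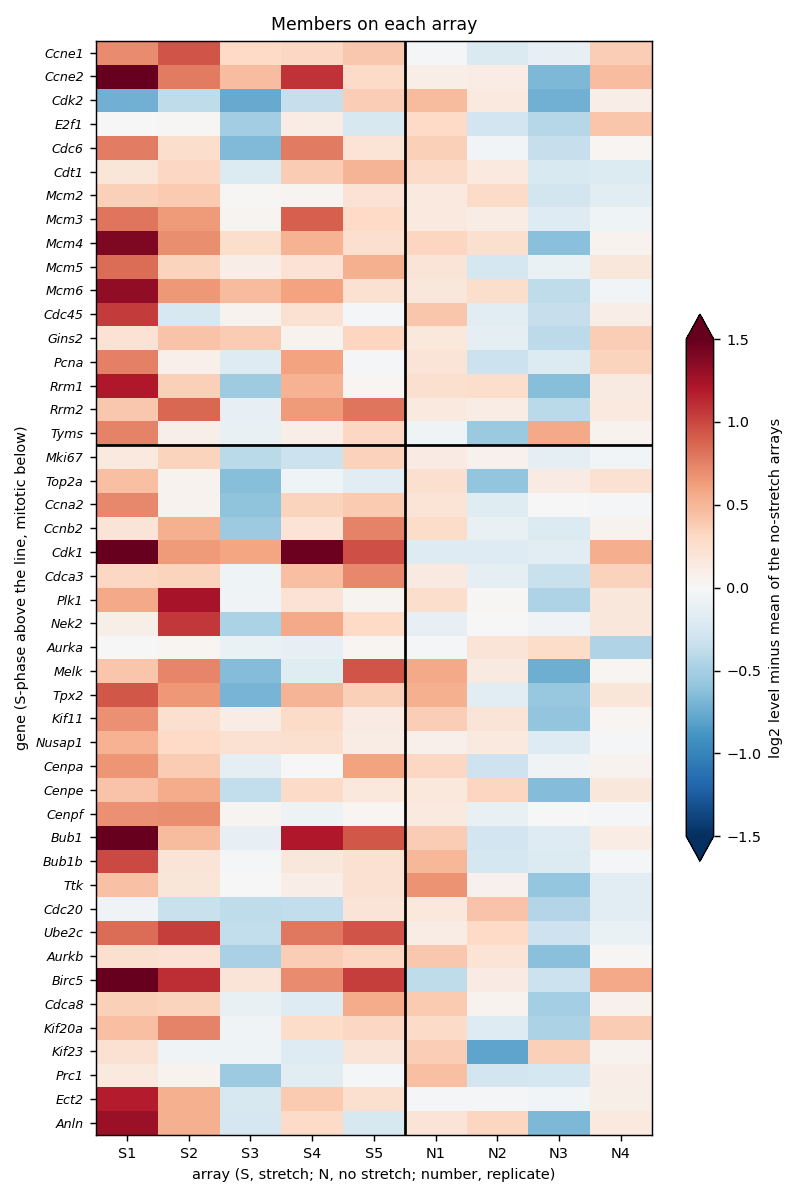
Level of each of the 46 measured members (rows) on each array (columns; stretch on the left, no stretch on the right), as the log2 level minus the mean of the 4 no-stretch arrays. Colours run from -1.5 (blue) to 1.5 (red); stretch replicate 1 is highest for 20 members and no-stretch replicate 3 lowest for 22.

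Entry into S phase is driven by cyclin E with its kinase CDK2. Ccne2, a cyclin E gene, was at 8.95, 7.76, 7.44, 8.07 and 7.27 with stretch and at 7.08, 7.09, 6.31 and 7.44 without. Stretch replicate 1 was far the highest and no-stretch replicate 3 the lowest, and no-stretch replicate 4 lay above stretch replicate 5. The log2 change was 0.92 (SE 0.33, limma adjusted p = 0.27), and 0.43 without these 2 arrays. Ccne1, the other cyclin E gene, was at 8.57, 8.79, 8.15, 8.16 and 8.25 with stretch and at 7.82, 7.63, 7.74 and 8.22 without. Only no-stretch replicate 4 reached into the stretched range. Its log2 change was 0.53 (95% confidence interval 0.11 to 0.95). The partner kinase gene Cdk2 had a log2 change of -0.37 (-0.98 to 0.24). E2f1, the gene of an activator of these cyclins, had -0.13 (-0.60 to 0.35), and both intervals include 0. E2f1 was at 4.69, 4.71, 4.17, 4.79 and 4.45 with stretch and at 4.98, 4.40, 4.26 and 5.11 without, with the highest value in non-stretched skin and the lowest in stretched skin. These levels are low, at percentile 35.6 of the gene means and below the array medians of 5.96 to 6.06. Whether E2f1 was detected was not tested.

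All measured parts of the replicative helicase had log2 changes above 0, from 0.20 for Mcm2 to 0.66 for Mcm6. Mcm6 was at 11.18, 10.50, 10.32, 10.45 and 10.07 with stretch and at 10.01, 10.11, 9.46 and 9.80 without. Only stretch replicate 5 fell below a non-stretched array. The difference was 1.58-fold (log2 change 0.66, SE 0.23, limma adjusted p = 0.25). Mcm3 was at 7.75, 7.59, 7.00, 7.85 and 7.25 with stretch and at 7.10, 7.07, 6.77 and 6.89 without, overlapping through stretch replicate 3. Its log2 change was 0.53 (0.10 to 0.97). Mcm4 had a change of 0.62 and Mcm5 of 0.40, and the helicase cofactors Gins2 and Cdc45 had 0.28 and 0.21; the Cdc45 value was -0.11 without stretch replicate 1 and no-stretch replicate 3. The licensing factors Cdc6 and Cdt1, which load the helicase at origins, had 0.27 and 0.24.

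Of the 4 genes of the sliding clamp and of nucleotide supply, Rrm2 had the smallest p. Rrm2 and Rrm1 encode the subunits of ribonucleotide reductase, which makes deoxynucleotides, and their log2 changes were 0.52 (0.03 to 1.01) and 0.32 (-0.38 to 1.02). Tyms, thymidylate synthase, had 0.23. Pcna, the sliding clamp of DNA polymerase, was at 15.77, 15.09, 14.81, 15.62 and 14.98 with stretch and at 15.21, 14.69, 14.80 and 15.34 without. Stretch replicates 1 and 4 lay above all non-stretched arrays and the other 3 stretched arrays among them, giving a log2 change of 0.24 (-0.27 to 0.76).

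**Figure D2:**
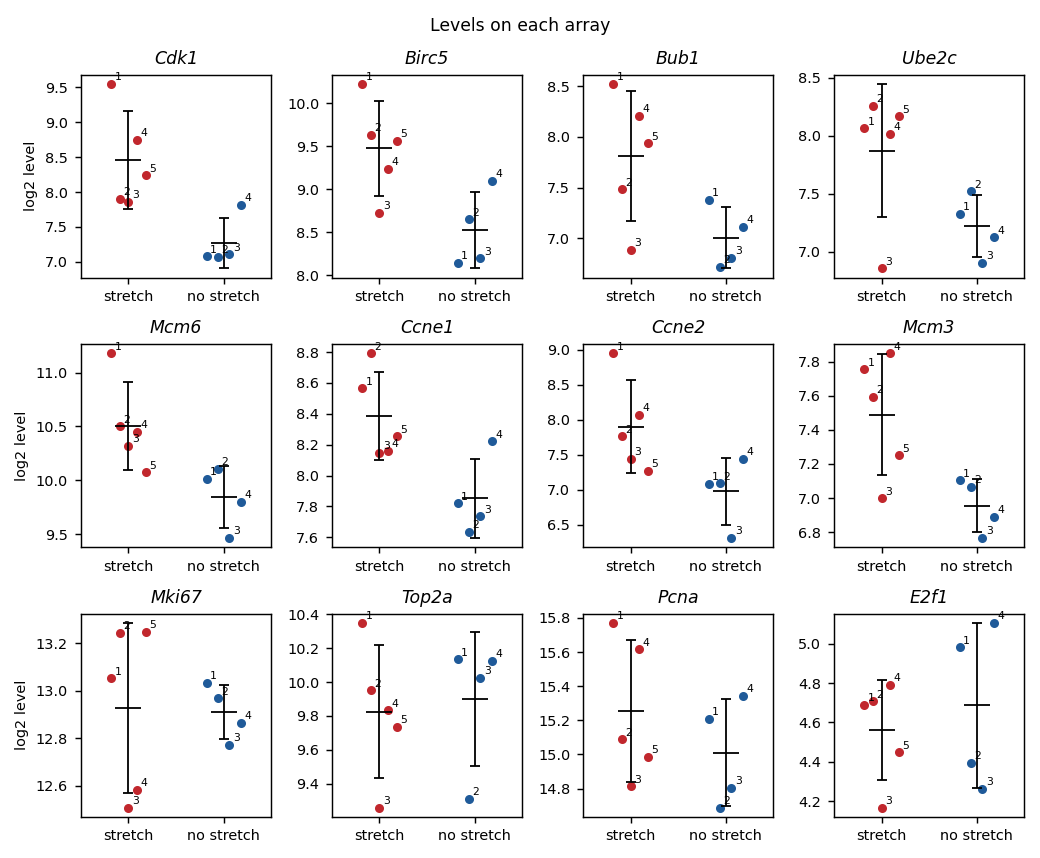
Log2 level of 12 members on each array, stretch on the left and no stretch on the right, with the replicate number beside each point and the mean and SD as bars. In Cdk1 the groups do not overlap; Birc5, Mcm6 and Ccne2 overlap by single arrays, and Mki67, Top2a and E2f1 overlap widely.

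Among mitotic genes, Cdk1, the kinase that drives entry into mitosis, had the largest change of all 46 members. It was at 9.55, 7.90, 7.86, 8.74 and 8.24 with stretch and at 7.08, 7.07, 7.11 and 7.81 without. It was the 1 member whose groups did not overlap with stretch higher, which 2.38% of all genes did, and no member's groups stood apart with stretch lower, as 2.15% of all genes' did. The gap between stretch replicate 3 and no-stretch replicate 4 was narrow. The difference was 2.28-fold (log2 change 1.19, 95% confidence interval 0.47 to 1.91, limma adjusted p = 0.16), and the log2 change was 0.86 without stretch replicate 1 and no-stretch replicate 3. The cyclins that bind this kinase had smaller changes, 0.18 (-0.35 to 0.71) for Ccna2 and 0.23 (-0.30 to 0.76) for Ccnb2. Cdca3, which helps to destroy the CDK1-inhibiting kinase WEE1, was at 7.02, 7.04, 6.65, 7.16 and 7.44 with stretch and at 6.85, 6.57, 6.37 and 7.06 without, with overlapping groups and a change of 0.35.

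The chromosomal passenger complex corrects how chromosomes attach to the spindle, and its members differed in size of change. Birc5, survivin, was at 10.22, 9.63, 8.72, 9.24 and 9.56 with stretch and at 8.15, 8.65, 8.20 and 9.10 without. Stretch replicate 3 lay below no-stretch replicate 4 and the other 4 stretched arrays above it. The log2 change was 0.95 (SE 0.30, limma adjusted p = 0.21). Its partners Aurkb, the kinase, and Cdca8, borealin, had 0.13 (-0.40 to 0.67) and 0.19 (-0.30 to 0.68). Whether Birc5 differed from its partners in response was not tested.

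Of the spindle checkpoint kinases, which hold anaphase back until chromosomes are attached, Bub1 had the largest change. It was at 8.52, 7.48, 6.89, 8.21 and 7.94 with stretch and at 7.38, 6.72, 6.81 and 7.12 without, with stretch replicate 3 inside the non-stretched range. The log2 change was 0.80 (0.14 to 1.46, limma adjusted p = 0.29), next to 0.31 for Bub1b and 0.19 for Ttk. Ube2c, the ubiquitin-conjugating enzyme of the anaphase-promoting complex, was at 8.06, 8.26, 6.86, 8.02 and 8.17 with stretch and at 7.33, 7.52, 6.91 and 7.13 without. All stretched arrays except replicate 3, the lowest of all 9, lay above the non-stretched ones. Its log2 change was 0.65 (0.05 to 1.26), while Cdc20, an activator of the same complex, had -0.19 (-0.64 to 0.27).

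Genes of spindle assembly and of cytokinesis had changes of 0.42 or less. Nusap1, a microtubule-binding protein of the spindle, was at 9.0, 8.77, 8.70, 8.72 and 8.58 with stretch and at 8.55, 8.62, 8.28 and 8.44 without, overlapping through stretch replicate 5. Its log2 change was 0.28 with an SE of 0.15 (limma adjusted p = 0.47). Tpx2, which activates Aurora A, had 0.35 and the spindle motor gene Kif11 0.29, and the centromere genes Cenpa, Cenpe and Cenpf lay between 0.21 and 0.30. The entry kinases Plk1 and Nek2 had 0.40 and 0.31, and Aurka, the Aurora A gene, had -0.03 (-0.41 to 0.35). Melk, a kinase of dividing cells, had 0.25. In the last steps of division, Ect2, the RhoA exchange factor of cytokinesis, had 0.42, Kif20a 0.34 and the ring scaffold Anln 0.32, but the central spindle genes Kif23 and Prc1 had 0.02 and -0.11.

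The proliferation markers most used in skin did not separate the groups. Mki67, the gene of the Ki-67 antigen, was at 13.05, 13.25, 12.51, 12.58 and 13.25 with stretch and at 13.03, 12.97, 12.77 and 12.87 without. Stretched arrays were both the highest and the lowest of the 9. Its log2 change was 0.02, and the 95% confidence interval of -0.41 to 0.45 leaves room for a change in either direction; the sign was negative after quantile normalisation (-0.08). Top2a, the topoisomerase that untangles chromosomes, was at 10.35, 9.95, 9.26, 9.83 and 9.74 with stretch and at 10.14, 9.31, 10.03 and 10.13 without, a change of -0.07 (-0.61 to 0.46).

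**Figure D3:**
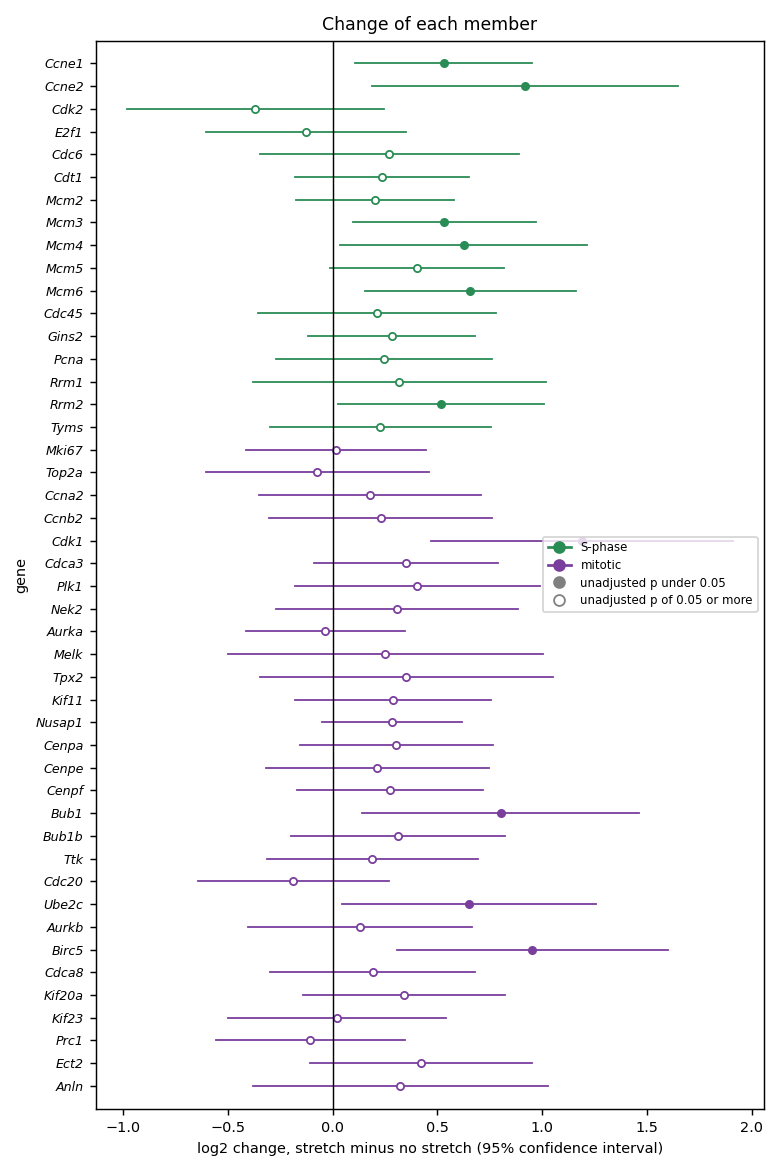
Log2 change (stretch minus no stretch) of each measured member with its 95% confidence interval, S-phase genes in green and mitotic genes in purple; filled points have an unadjusted p under 0.05. The 10 filled points all lie above 0, with Cdk1 farthest at 1.19, and Cdk2 is lowest at -0.37.

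The median log2 change was 0.28 for both S-phase and mitotic genes, with 15 of 17 S-phase members and 25 of 29 mitotic members above 0. The medians were further apart in other settings: 0.34 for S-phase and 0.25 for mitotic members after quantile normalisation, and 0.31 for S-phase and 0.20 for mitotic members without stretch replicate 2. Whether the medians differ was not tested. At an unadjusted p under 0.05, 6 of the 17 S-phase members and 4 of the 29 mitotic members were higher, and whether these shares differ was not tested. On each array the members of a class were averaged after setting each gene to 0 at its no-stretch mean. The S-phase mean was 0.33 ± 0.28 with stretch (SD, n = 5) around a no-stretch spread of 0.24 (SD, n = 4). The mitotic mean was 0.30 ± 0.32 with stretch (SD, n = 5) around a no-stretch spread of 0.21 (SD, n = 4). The groups overlapped in both means, through stretch replicate 3 (-0.06 for S-phase and -0.21 for mitotic genes), which lay below no-stretch replicate 1 (0.21 and 0.23).

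The S-phase mean minus the mitotic mean was 0.07, -0.08, 0.15, 0.15 and -0.10 on the stretched arrays and -0.02, 0.02, -0.05 and 0.05 on the non-stretched ones. The stretched arrays lay on both sides of the non-stretched ones, and the mean was 0.04 ± 0.12 with stretch (SD, n = 5) with a no-stretch SD of 0.04 (n = 4). Arrays that were high in one class were high in the other: stretch replicate 1 was highest and no-stretch replicate 3 lowest in both. The 2 means come from the same arrays and share any difference between them in tissue or RNA.

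**Figure D4:**
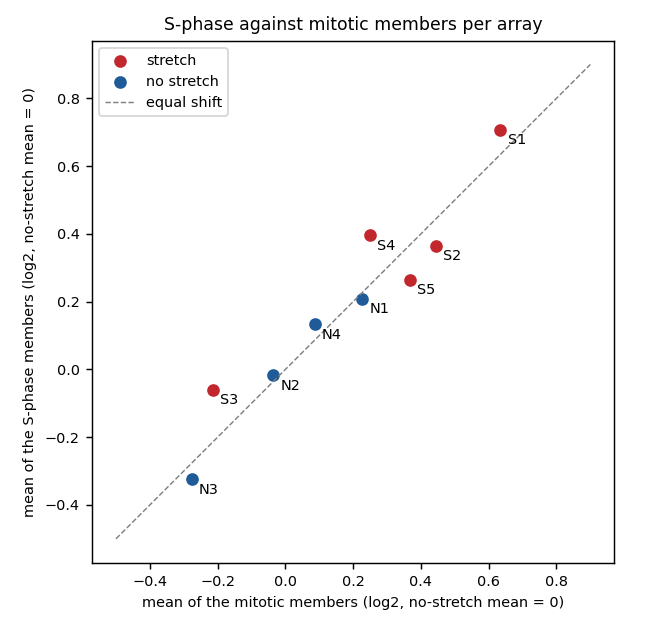
Mean of the 17 S-phase members (vertical axis) against the mean of the 29 mitotic members (horizontal axis) on each array, in log2 units with the no-stretch mean at 0; S marks stretch and N no stretch, with the replicate number. All 9 arrays lie near the dashed line of equal shift, from N3 at the bottom to S1 at the top, and S3 lies among the no-stretch arrays.

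Other genes of the same processes gave similar values, but they were measured on the same arrays and share any difference between them. Averaged per array as above, the further replication genes lay between 0.15 and 0.52 with stretch and between -0.22 and 0.12 without, a narrow gap. The further mitotic genes lay between -0.01 and 0.73 with stretch and between -0.17 and 0.08 without, overlapping through stretch replicate 3. Both further lists were highest on stretch replicate 1 (0.52 for replication and 0.73 for mitotic genes). Both were lowest on no-stretch replicate 3 (-0.22 and -0.17). These lists are therefore not independent evidence for the shift. Of 45 further replication genes, none passed over all genes. At an unadjusted p under 0.05, 11 were higher and 0 lower, against 6.92% and 6.07% of all genes. The median log2 change was 0.28 (0.19 to 0.36 with single arrays left out). The smallest p belonged to Fen1, the flap endonuclease of lagging-strand synthesis, at 7.41, 7.78, 7.69, 7.61 and 7.73 with stretch and 7.01, 6.86, 6.81 and 6.97 without, a change of 0.73 (limma adjusted p = 0.062, and 0.035 with array weights). Its groups did not overlap, with stretch higher, as in 2 of the 45 and in 2.38% of all genes. Tipin of the fork protection complex had 0.72, the clamp loader gene Rfc3 0.64 and the chromatin remodeller gene Hells 0.45. Of 65 further mitotic genes, none passed, and 14 were higher and 0 lower at that p (6.92% and 6.07% of all genes). In 6 the groups did not overlap, with stretch higher, against 2.38% of all genes. The median was 0.27 (0.19 to 0.37 with single arrays left out). Depdc1a had 0.92, the kinetochore gene Zwilch 0.87, the checkpoint ATPase gene Trip13 0.86 and the centriole duplication kinase gene Plk4 0.62 (limma adjusted p between 0.097 and 0.21).

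Of 17 CDK inhibitors and p53 targets, none passed. At an unadjusted p under 0.05, 4 were higher and 0 lower, against 6.92% and 6.07% of all genes. Of the 17 changes, 12 were above 0, against 49.6% of all genes. The median log2 change was 0.30, but it was 0.095 when no-stretch replicate 3 was left out, and 0.11 when either stretch replicate 5 or no-stretch replicate 2 was. Gadd45b, a stress-response gene, had 1.21 and Cdkn2d, an inhibitor of CDK4 and CDK6, had 1.10 (limma adjusted p = 0.094 and 0.066). Neither gene's groups overlapped, with stretch higher, as in 2.38% of all genes. With array weights these adjusted p were 0.041 for Gadd45b and 0.049 for Cdkn2d, and Cdkn2d was at 0.034 without no-stretch replicate 4 (limma). Cdkn2d was at 7.23, 7.88, 7.41, 7.67 and 7.60 with stretch and at 6.41, 6.32, 6.03 and 7.07 without. Plk2 had 0.84 and Mdm2, the ubiquitin ligase of p53, 0.82.

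Of 17 genes of the RB and E2F family, none passed. At an unadjusted p under 0.05, 3 were higher and 1 lower, against 6.92% and 6.07% of all genes. The median was 0.13, with 0.029 without no-stretch replicate 3 and 0.26 without stretch replicate 1. E2f7 and E2f8, repressors within the E2F family, had 0.89 and 0.63, and Rb1 had 0.53. The E2f7 groups did not overlap, with stretch higher, as in 2.38% of all genes. Rbl2, the RB-family gene p130 of resting cells, was at 9.14, 9.55, 9.09, 9.58 and 9.43 with stretch and at 9.75, 9.75, 9.97 and 9.77 without. Its change was -0.46 (limma adjusted p = 0.26), and its groups did not overlap, with stretch lower, as in 2.15% of all genes. Of 11 G1 cyclins, kinases and regulators, none passed, and 1 was higher and 2 lower at that p (6.92% and 6.07% of all genes). The median was -0.08, with single arrays left out -0.17 (without no-stretch replicate 3) to -0.033 (without no-stretch replicate 4). Cks1b, a CDK-binding subunit, had 0.73 and passed without stretch replicate 3 (limma adjusted p = 0.033). The others had values of 0.33 for Ccnh, -0.61 for Ccnd2, a D-type cyclin, and -0.63 for Myc (limma adjusted p between 0.26 and 0.48).

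**Figure D5:**
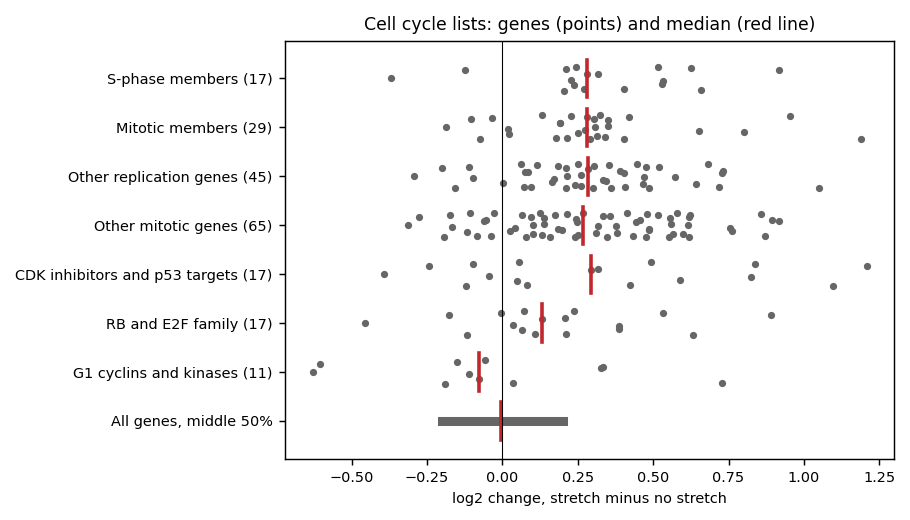
Log2 change (stretch minus no stretch) of the genes in each cell cycle list, 1 point per gene with its number in brackets and a red line at the median; the grey bar is the middle 50% of all genes. Replication and mitosis lists have medians of 0.27 to 0.28, G1 cyclins and kinases -0.08, and all genes -0.0034.

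Markers of skin cell types also differed between the groups, and their part in the cell cycle values was not tested. Keratinocyte genes were abundant on every array, Krt14 between 19.13 and 19.76 with stretch and between 18.41 and 19.48 without. On the same per-array scale as above, the 12 basal keratinocyte markers lay between 0.12 and 0.66 with stretch and between -0.43 and 0.26 without, lowest on no-stretch replicate 3; 7 of them were higher at an unadjusted p under 0.05, against 6.92% of all genes, and 0 lower; 3 of the 12 changes were below 0. The changes ran from -1.16 to 1.22, the highest for Lama3. The 7 wound-type keratinocyte genes lay between 0.50 and 1.91 with stretch and between -0.59 and 0.93 without. The 10 suprabasal markers lay between -1.64 and -0.20 with stretch and between -0.28 and 0.27 without. Of these, Flg2 (smallest p) had a change of -1.74 and Krt1 (highest mean) of -0.06. The 14 neutrophil markers lay between 0.73 and 1.81 with stretch and between -0.41 and 0.27 without. Of these, Clec4e (smallest p) had a change of 3.18 and S100a8 (highest mean) of 0.59. The 10 macrophage markers lay between -0.01 and 1.26 with stretch, lowest on replicate 3, and between -0.47 and 0.74 without, lowest on replicate 3. The 12 hair matrix markers, genes of growing hair follicles, lay between -0.67 and -0.44 with stretch and between -0.40 and 0.32 without. Among them Dlx3 (smallest p) had a change of -1.22 and Shh (highest mean) of -0.35. The 8 skeletal muscle markers lay at -1.54 on stretch replicate 1, the array highest in cell cycle genes, and between -0.01 and 0.53 on the other stretched arrays, against -0.32 to 0.36 without stretch. Fibroblast (8 markers, -1.21 to -0.63 with stretch and -0.10 to 0.15 without), T cell (10 markers, -0.63 to 0.00 and -0.12 to 0.26) and endothelial lists (7 markers, -0.26 to 0.74 and -0.45 to 0.24) completed the set. Over all these markers only 2 passed over all genes, the fibroblast genes Cd34 (log2 change -1.60) and Dpt, both lower with stretch. Other named markers passed in some alternatives, Clec4e in the most.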

How the data were processed

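The authors deposited log2 expression values for 22206 features on 9 arrays (5 stretch, 4 no stretch). Per the submitters' processing notes, the tools were RMA and Transcriptome Analysis Console; their versions, the genome build and any filters were not given in the sources used here. No detection calls were used. Gene symbols came from the platform annotation: 19572 features had 1 symbol, 0 had several and 2634 were unnamed here. No array was identical to another. Stretch was set against no stretch by a two-sided moderated test (limma 3.58.1 under R 4.3.3; functions lmFit and eBayes) without covariate or filter, adjusted by Benjamini-Hochberg over 19505 genes; the median standard error was 0.21. With 9 arrays, precision is bounded by their number. The test was checked on simulated data with 200 changed genes. It recovered 44% of them at a 2-fold change, 91.5% at 4-fold and 99.5% at 8-fold. Of its calls, 7.37%, 7.58% and 6.57% were false. All members except Cdk1 (2.28-fold) differed by less than 2-fold, so not passing does not show that a member was unchanged. Folds are back-transformed log2 changes.

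The members and lists were chosen with earlier results of these data known, so lists are given as counts and medians without a test. All members may be named; values on every array are given for the 6 mitotic and 4 S-phase members of smallest p and for Mki67, Top2a, Pcna and E2f1, and in other lists up to 4 cell cycle genes of smallest p and, for markers, the gene of highest mean or smallest p. Values on every array of Fen1, Cdkn2d and Rbl2 were added after they were seen. Promoters came from RefSeq. Alternatives were other scalings, a filter on dim genes, averaged features, another variance model, array weights, a replicate block, another threshold and leaving out arrays.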

Additional observations from a re-analysis of the deposited data

Results flagged for a closer look

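Of 178 groups of 4 or 5 arrays examined, 18 held 1 array far from the rest by Dixon's ratio, and 8 of these concern cell cycle members. Chance gives about 1 in 20 for independent groups. The groups here share the same 9 arrays and include genes chosen by smallest p, so this count cannot show an excess. Cdk1 was at 7.81 on no-stretch replicate 4, against 7.07 to 7.11 on the other non-stretched arrays, and Ect2 was at 8.49 there, against 8.36 to 8.38. No-stretch replicate 3 was low for Rrm1 (10.22, next 10.99) and Rrm2 (9.34, next 9.86), and no-stretch replicate 2 for Top2a (9.31, next 10.03). Stretch replicate 3 was low for Ube2c (6.86, next 8.02) and Aurkb (6.82, next 7.53), and stretch replicate 1 was high for Bub1b (10.04, next 9.28). Among other genes, Gadd45b was at 7.43 on no-stretch replicate 4 (next 6.79), Rbl2 at 9.97 on no-stretch replicate 3 (next 9.77) and Depdc1a at 8.31 on no-stretch replicate 1 (next 8.10). Among markers, Krt1 was at 19.62 on stretch replicate 4 (next 19.91) and at 19.91 on no-stretch replicate 3 (next 19.93). Krt1 lay at percentile 100 of the gene means with a no-stretch SD of 0.0094, so the latter step is very small. Whether its signal was saturated was not tested. Shh was at 8.20 on no-stretch replicate 3 (next 7.49) and Lyz2 at 15.80 on stretch replicate 3 (next 17.57). On stretch replicate 1, Tek was at 6.28 (next 6.75), Acta1 at 17.02 (next 18.28) and Actn3 at 10.39 (next 11.72).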

How the results depend on the processing

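The count of genes past the threshold over all genes was 48 in the reported test, 75 after quantile normalisation, 105 without the dimmest genes, 157 with array weights, 221 with the replicate number as a block, 15 without both arrays of lowest weight (chosen after seeing the data), 211 at an adjusted p of 0.1, and 2 to 195 with single arrays left out; the cause was not tested. The number of cell cycle members that passed was 0 under each of these except without stretch replicate 3, where it was 1 (Ube2c), so the range with single arrays left out was 0 to 1. With single arrays left out, the median log2 change was between 0.17 and 0.48 for S-phase and between 0.16 and 0.40 for mitotic members, lowest without no-stretch replicate 3 and highest without stretch replicate 3 in both. Among other named genes, these passed as adjusted p: with array weights Cdkn2d (0.049), Gadd45b (0.041), Fen1 (0.035), Clec4e (0.034) and Tek (0.035); after quantile normalisation Clec4e and Tek (0.049 each); with the block Clec4e (0.011), Flg2 (0.027) and Sprr1a (0.048); Clec4e also without the dimmest genes (0.039) and with trend variance (0.049); without stretch replicate 3 Cks1b (0.033), Clec4e and Cd14 (0.0074 each); and without no-stretch replicate 4 Cdkn2d (0.034) and Dlx3 (0.045). Mki67 changed sign under quantile normalisation (-0.084), the block (-0.063), without both arrays (-0.059) and with single arrays left out (-0.063 to 0.12). Kif23 did so under quantile normalisation (-0.050), the block (-0.021) and single omissions (-0.24 to 0.15), and Aurka with array weights (0.040), without both arrays (0.053) and under single omissions (-0.18 to 0.059). Single omissions also turned the sign of E2f1 (-0.27 to 0.015), Top2a (-0.27 to 0.068), Prc1 (-0.20 to 0.043), Cenpe (-0.0021 to 0.36), Ttk (-0.0013 to 0.41), Aurkb (-0.078 to 0.29) and Acta1 (-0.34 to 0.039). Without both arrays Cdc45 (-0.11), Rrm1 (-0.12), Melk (-0.034), Kif11 (-0.0055), Cenpe (-0.055), Ttk (-0.065), Aurkb (-0.10), Cdca8 (-0.021), Anln (-0.14) and Acta1 (0.017) also changed sign. The block fit was run on replicates 1 to 4 only, without stretch replicate 5. On the same arrays without the block, 13 genes passed. Deviations of same-numbered arrays from their group means correlated across genes at -0.062, -0.018, 0.064 and 0.34 for replicates 1 to 4. The value for replicate 4 was the largest of any stretch and no-stretch pair. Stretch replicates 1 and 2 correlated best with no-stretch replicate 3. Whether same-numbered samples were paired cannot be told from these values. All 46 members remained under the filter on dim genes.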
